A study of Homo sapiens with 16 samples.

Results

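The 46 genes described here encode proteins that make ribosomes: the core proteins of the snoRNA particles, abundant nucleolar proteins, RNA helicases, assembly factors of the small and large ribosomal subunit, and subunits and factors of RNA polymerase I. They were given as a list of gene symbols, matched to the Ensembl identifiers of the count table through GENCODE release 44. The list is one of function and uses no measured value, but it was drawn up with earlier results of these data known. All 46 were found among the 60676 genes of the table, and all 46 passed the filter on low counts that left 16503 genes for testing. RNA was sequenced from THP-1, a human cell line established from an acute monocytic leukemia. These cells take on macrophage features when treated with the phorbol ester PMA. Lines carrying a lentiviral control hairpin (shNC) or a short hairpin RNA against UHRF1 (shUHRF1), DNMT1 (shDNMT1) or DNMT3B (shDNMT3B) were each treated with the solvent DMSO or with PMA at 100 ng/ml, for 48 h. Each of the 8 groups had 2 libraries, which makes 16. All 4 lines carry a hairpin vector. The sources do not say that the libraries of a group came from separate cultures. The p-values thus measure the spread between these libraries, which may be technical. The 2 labels of a sample named different conditions for 12 of 16 samples, and libraries were placed by the condition in the column names of the table.

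Ribosome production starts in the nucleolus, where RNA polymerase I transcribes the precursor of the ribosomal RNAs with the help of UBTF and promoter-bound factors. Box C/D particles methylate that precursor and box H/ACA particles convert uridines in it to pseudouridine, guided by snoRNAs. Assembly factors fold, cut and export the pre-ribosomal subunits. Many of these genes are textbook targets of MYC, a transcription factor that binds the E-box CACGTG together with MAX. Growing leukemia cells express them highly, whereas cells that stop dividing usually need fewer new ribosomes.

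The libraries held 13883556 to 23151864 counts, and mitochondrially encoded genes took 3.92% to 29.0% of them, more in replicate 1 than in replicate 2 of every group. Levels are CPM, counts scaled to the library's total times its TMM factor, so each is relative to the library's other mRNA. In bulk RNA, fewer cells of a type and less RNA per cell cannot be told apart. The hairpin targets were checked first. UHRF1 read 87.1 and 123 CPM in shNC DMSO against 72.0 and 91.2 in shUHRF1 DMSO. DNMT1 read 89.6 and 140.0 against 82.4 and 111 in shDNMT1. DNMT3B read 8.73 and 9.73 against 6.40 and 6.87 in shDNMT3B. None of these differences was past the threshold in edgeR (quasi-likelihood, adjusted p = 0.605, 0.787 and 0.212; with the replicate block 0.0525, 0.204 and 0.0757). After PMA each target was higher in the line labelled as its knockdown than in shNC: UHRF1 by 0.87 ± 0.29 (log2, SE, adjusted p = 0.129), DNMT1 by 0.45 ± 0.30 (adjusted p = 0.376) and DNMT3B by 1.06 ± 0.23 (adjusted p = 0.00688), all 3 past the threshold with the block (adjusted p = 3.75e-04, 0.00418 and 0.00183). These higher levels were not particular to the matching line. After PMA, UHRF1 read 4.62 and 7.43 CPM in shNC and 9.62 and 12.2 in shUHRF1. In shDNMT1 it read 32.2 and 36.6, and in shDNMT3B 26.2 and 34.0. DNMT1 read 56.9 and 78.0 in shNC, and 71.1 and 110 in shUHRF1 against 84.1 and 99.7 in shDNMT1. DNMT3B read 1.26 and 1.59 in shNC and 1.53 and 1.74 in shUHRF1. It read 2.48 and 2.74 in shDNMT1 and 2.74 and 3.19 in shDNMT3B. The lines are therefore named by their labels, and every comparison with shNC below is one between labelled lines. The 8 monocyte and macrophage markers summed to 398 to 577 CPM in DMSO and 2070 to 2830 CPM in PMA. Each was above 0 in some library of either treatment, but MPEG1 read 0 in both shUHRF1 PMA libraries. In shNC 4 of the 8 rose and 3 fell (26% of all tested genes fell and 28.4% rose). CSF1R (log2 fold change 4.99 ± 0.20) and ITGAM (3.13 ± 0.25) were among the rises, and LYZ (-1.37 ± 0.25) and FCGR1A (-2.38 ± 0.56) among the falls. The sum of 10 cell division genes was 1320 to 1720 CPM in DMSO and 79.3 to 319 CPM in PMA. Within that PMA range the lines differed. CDC20 averaged 7.05 CPM in shNC PMA and 12.6 in shUHRF1 PMA, against 45.2 in shDNMT1 PMA and 63.4 in shDNMT3B PMA. MKI67 averaged 14.6, 17.1, 63.4 and 53.7 CPM in the same order, whereas PCNA averaged 20.9, 17.4, 20.9 and 26.6. The replicate 1 library of shNC DMSO alone held 232 CPM of HBB and 184 CPM of HBA2, hemoglobin genes that stayed at or below 1.304 CPM elsewhere, with HBD at 0 in every library. Of the 5 T cell markers, CD3D was at 0 in every library and TRAC alone was above 0 in PMA, where it set the list's sum of 11.8 to 20.6 CPM against 0.156 to 0.850 in DMSO. The 5 B cell markers summed to 6.41 to 15.6 CPM in DMSO and 7.25 to 32.8 in PMA, and the 6 epithelial and fibroblast markers to 0.676 to 4.07 and 3.35 to 11.6. The part of these markers in the results below was not tested.

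Promoter windows of 250 bases before to 50 bases after the start (RefSeq, GRCh38.p14) were found for 38 of the 46 genes. The E-box CACGTG, which is its own reverse complement and so was searched on both strands at once, was present for 18 of those 38 genes (47.4%), beside 12.2% of 11736 tested genes and 8.77% of all 27305 genes with such a window, counting a gene once whichever of its starts held the motif. Of the 19 motifs of these 18 genes, 18 began within 50 bases of the start and 12 of them began after it. The stretches below, of 30 bases with the E-box in capitals, are shown because these genes carry the motif close to the start yet differ in their response to PMA.
FBL: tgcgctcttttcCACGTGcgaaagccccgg
GAR1: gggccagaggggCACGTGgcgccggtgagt
MRTO4: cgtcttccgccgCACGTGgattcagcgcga
NAT10: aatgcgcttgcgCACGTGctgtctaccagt
GNL3: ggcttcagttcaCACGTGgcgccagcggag
LTV1: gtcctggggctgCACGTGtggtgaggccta
NOP10: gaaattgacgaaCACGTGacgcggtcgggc
DDX21: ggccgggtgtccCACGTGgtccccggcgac
They lie at chr19:39846356-39846385 on the minus strand for FBL, chr4:109815781-109815810 on the plus strand for GAR1, chr1:19251807-19251836 (plus) for MRTO4, chr11:34105602-34105631 (plus) for NAT10, chr3:52686026-52686055 (plus) for GNL3, chr6:143843354-143843383 (plus) for LTV1, chr15:34343130-34343159 (minus) for NOP10 and chr10:68956604-68956633 (plus) for DDX21. Counted from the RefSeq start, the motif begins 6 bases after the first transcribed base in FBL and GNL3 and 31 after it in GAR1. It begins 14 after it in MRTO4 and 28 after it in LTV1. In NAT10, NOP10 and DDX21 the motif begins at -15, -11 and -31, upstream of that start. GENCODE places some starts elsewhere, and its bounds of NOP10 and DDX21 contain these stretches. In shNC the first 5 of these genes by the order above had log2 fold changes after PMA from -1.61 to -0.48, and the other 3 from 0.39 to 1.04. Of those 3, LTV1 alone passed the threshold in shNC without the block. Others of the 18 genes, such as WDR43 (0.05) and PES1 (-0.06), changed little in shNC and are not shown. Leaving out PWP2, whose counts are few, the median log2 fold change in shNC was -0.24 for the 17 with the motif, with a range of -1.61 to 1.04, and -0.40 for the 20 without it, with a range of -1.64 to 0.96. A match is only a match of letters, and binding was not measured.

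Among the 46 genes, levels per kilobase of exon spanned a wide range over the 16 libraries. NPM1, a histone and ribosomal protein chaperone, was highest at 200 CPM per kb, followed by NOP10 at 129, NCL at 86.9, FBL at 59.4 and LTV1 at 51.8. The lowest, apart from PWP2, were UTP20 at 0.825 and DDX10 at 1.71 CPM per kb. The length used was that of all annotated exons of a gene together, and the ranks depend on it. For DDX10 it was 18059 bases, and its mean of 31.0 CPM was above those of GAR1 (22.9) and UTP15 (16.7). PWP2, a small subunit factor, had 126 counts over all 16 libraries, while a second gene on the same build, ENSG00000275464, matches its coding transcript with 99.8% identity over its whole length and held 6763 counts. PWP2 on its own read 0 and 3 counts in the shNC DMSO libraries and 9 and 6 after PMA, so its values are uncertain and no fold change is given for it. With the counts of both summed, an alternative chosen after seeing the data, the level was 20.3 and 30.4 CPM in shNC DMSO and 18.7 and 20.5 in shNC PMA, and the log2 fold change was -0.37 ± 0.28 (SE, adjusted p = 0.271).

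After PMA, most of the 46 genes that changed went down. In shNC, 18 of 46 (39.1%) fell and 4 rose, where 26% of all tested genes fell and 28.4% rose (edgeR, adjusted p under 0.05 with no fold limit). In shUHRF1 26 fell and 2 rose (background 25.5% and 29.4%). In shDNMT1 24 fell and 3 rose (24.1% and 28.6%). In shDNMT3B 19 fell and none rose (19.7% and 25.2%). The median log2 fold change of the 46 genes was -0.33 in shNC, -0.63 in shUHRF1, -0.50 in shDNMT1 and -0.39 in shDNMT3B, beside medians of all tested genes between -0.01 and 0.02. With the replicate number as a block, 23 fell and 8 rose in shNC (background 32.6% and 34.5%), 35 and 4 in shUHRF1 (32.5% and 35.4%), 31 and 5 in shDNMT1 (31% and 34.4%), and 28 and 2 in shDNMT3B (27.5% and 32.5%). For shDNMT3B the total went from 19 to 30 calls with the block. Leaving out 1 library, with the lone library of its group assumed to vary like the others, gave 15 to 18 calls in shNC (15 without the library that held hemoglobin) and 23 to 27 in shUHRF1. In shDNMT1 it gave 17 to 23, with 17 in place of 27 without its DMSO replicate 1. In shDNMT3B it gave 12 to 17, with 12 in place of 19 without its PMA replicate 2. In both fits the share that fell was above, and the share that rose below, that of all tested genes in each line. Summed over the 46 genes, the level ran from 5522 to 7489 CPM in the 8 DMSO libraries and from 3628 to 4816 CPM in the 8 PMA libraries, without overlap. For shDNMT3B, where none rose, there were 0 rises and 24 falls at an unadjusted p under 0.05 (background 52% of all tested genes in either direction) and 0 rises in DESeq2, but 1 without the filter on low counts and 2 with the block.

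**Figure D1:**
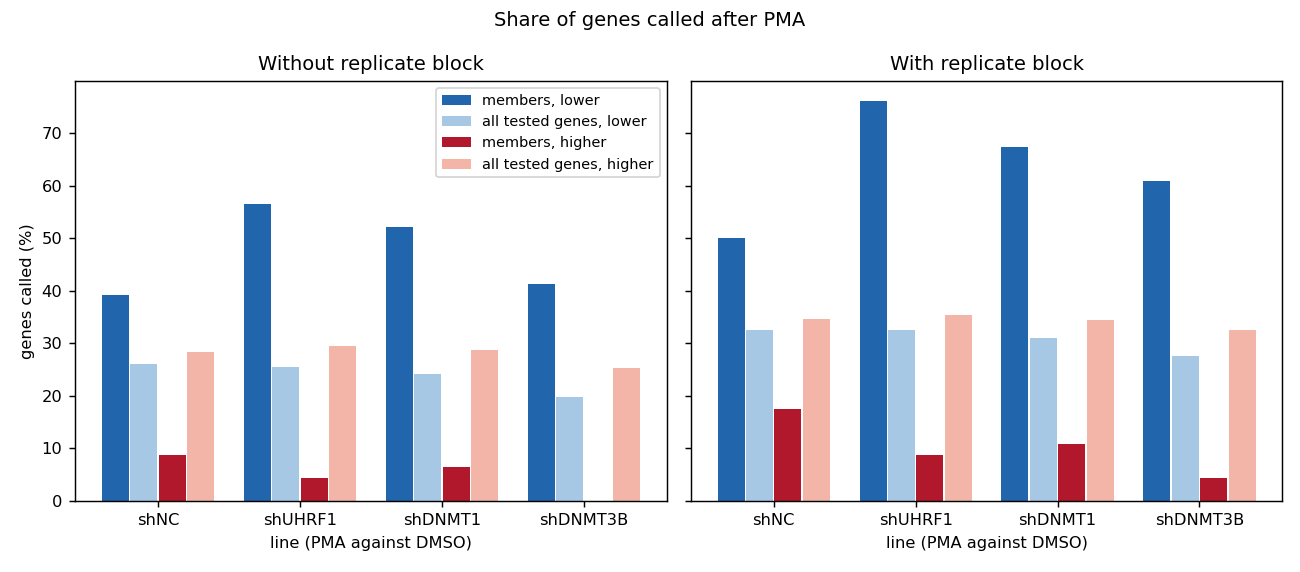
Share of genes called after PMA (y axis, percent) in each of the 4 lines (x axis), for the 46 ribosome biogenesis genes (dark bars) and for all 16503 tested genes (light bars), lower in blue and higher in red, without (left) and with (right) the replicate block. In shUHRF1, 56.5% of the 46 genes fell without the block and 76.1% with it, above the share of all tested genes, while the red bars of the 46 genes stay below those of all tested genes in every line (the missing bar of shDNMT3B without the block is a count of 0).

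The proteins of the snoRNA particles were among the genes that fell most. Fibrillarin, encoded by FBL (ENSG00000105202, chr19:39834458-39846379, minus strand), is the methyltransferase of the box C/D particle. In DMSO, FBL read 203 and 142 CPM in shNC, 193 and 157 in shUHRF1, 208 and 179 in shDNMT1 and 269 and 175 in shDNMT3B (replicates 1 and 2, here and below). After PMA it read 62.4 and 51.0 CPM in shNC, 73.6 and 53.2 in shUHRF1, 60.6 and 45.3 in shDNMT1 and 90.5 and 68.0 in shDNMT3B, so that every PMA library was below every DMSO library. The log2 fold change was -1.61 ± 0.27 (SE, adjusted p = 2.9e-04) in shNC, -1.46 ± 0.27 in shUHRF1, -1.87 ± 0.28 in shDNMT1 and -1.49 ± 0.27 in shDNMT3B, past the threshold in all 4 lines. NOP56, a scaffold protein of the same particle, fell in all 4 lines too, by 0.99 to 1.44 on the log2 scale. NOP58, its partner in that scaffold, read 182 and 114 CPM in shNC, 198 and 115 in shUHRF1, 203 and 126 in shDNMT1 and 201 and 130.2 in shDNMT3B in DMSO. After PMA, NOP58 read 110.5 and 76.7 CPM in shNC, 106 and 71.8 in shUHRF1, 104 and 73.8 in shDNMT1 and 137 and 90.5 in shDNMT3B. Its 2 libraries differed widely within a group, replicate 1 being the higher in 8 of 8 groups, and the log2 fold change of -0.66 ± 0.37 (SE, adjusted p = 0.154) in shNC and those of the other lines missed the threshold. With the replicate block NOP58 passed it in all 4 lines (adjusted p = 2.5e-05 in shNC).

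Of the box H/ACA particle, 3 of the 4 proteins fell and 1 did not. Dyskerin, encoded by DKC1, is the pseudouridine synthase. DKC1 read 167 and 138 CPM in shNC, 153 and 135 in shUHRF1, 158 and 139 in shDNMT1 and 148 and 124 in shDNMT3B in DMSO. In PMA the values were 87.1 and 72.5 CPM in shNC, 88.2 and 68.4 in shUHRF1, 80.5 and 76.2 in shDNMT1 and 76.7 and 67.9 in shDNMT3B, all below the DMSO libraries, with log2 fold changes between -0.94 and -0.88 in the 4 lines (-0.94 ± 0.18 (SE, adjusted p = 7.2e-04) in shNC). NHP2, a core protein, fell in all 4 lines by 0.75 to 1.05 (log2), but it overlaps RMND5B on the other strand, and as the strand setting of the counting is not stated, reads of the pair may not be told apart. GAR1, which binds dyskerin in the mature particle, read 52.5 and 26.6 CPM in shNC, 36.6 and 24.2 in shUHRF1, 38.0 and 20.0 in shDNMT1 and 41.1 and 22.4 in shDNMT3B in DMSO. The PMA libraries read 17.9 and 12.8 CPM in shNC, 17.6 and 8.27 in shUHRF1, 10.1 and 6.91 in shDNMT1 and 19.1 and 11.7 in shDNMT3B, and the log2 fold change was -1.36 ± 0.47 (SE, adjusted p = 0.0266) in shNC, past the threshold in 3 lines, and in shDNMT3B (adjusted p = 0.0900) with the block alone (3.4e-06). NOP10, the smallest protein of the core, went the other way. It read 199 and 111 CPM in shNC, 174 and 102 in shUHRF1, 173 and 114 in shDNMT1 and 231 and 137 in shDNMT3B in DMSO. With PMA the values were 247 and 199 CPM in shNC, 326 and 217 in shUHRF1, 232 and 171 in shDNMT1 and 359.7 and 261 in shDNMT3B, higher than the DMSO library of the same number in every line. NOP10 rose in shUHRF1 (log2 fold change 0.98 ± 0.38 (SE, adjusted p = 0.0426)), and in the other 3 lines it passed the threshold only with the block (log2 fold change 0.53 ± 0.37 (SE, adjusted p = 0.249) in shNC, 4.3e-04 with the block).

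The 3 abundant nucleolar phosphoproteins fell, although not each in every line. Nucleolin, encoded by NCL, binds ribosomal RNA precursors. NCL read 1127 and 1101 CPM in shNC, 958 and 986 in shUHRF1, 936 and 918 in shDNMT1 and 984 and 885 in shDNMT3B in DMSO. Under PMA it read 582 and 476 CPM in shNC, 683 and 504 in shUHRF1, 649.5 and 518 in shDNMT1 and 569 and 519 in shDNMT3B, without overlap, and the log2 fold change was -1.07 ± 0.20 (SE, adjusted p = 6.5e-04) in shNC and -0.71 ± 0.20, -0.67 ± 0.20 and -0.78 ± 0.20 in shUHRF1, shDNMT1 and shDNMT3B. NOLC1, a chaperone of snoRNA particles, fell in all 4 lines by 1.04 to 1.39 (log2). NPM1 had the highest level of all 46 genes and read 2328 and 1430 CPM in shNC, 2289 and 1471 in shUHRF1, 2937 and 1891 in shDNMT1 and 2549 and 1695 in shDNMT3B in DMSO. In PMA it read 1428 and 1074 CPM in shNC, 1596 and 931 in shUHRF1, 1222 and 993 in shDNMT1 and 1593 and 1161 in shDNMT3B, where 2 of the libraries numbered 1 exceeded the lowest DMSO library. The fall of NPM1 passed the threshold in shDNMT1 (-1.12 ± 0.37 (SE, adjusted p = 0.0229)) and missed it in the other lines (-0.59 ± 0.37 (SE, adjusted p = 0.198) in shNC), whereas with the block it passed in all 4 (adjusted p = 0.00134 in shNC). The reads of NPM1 pseudogenes in the table came to 0.806% of its counts.

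The 3 DEAD-box RNA helicases did not move together. DDX21 (ENSG00000165732, chr10:68956135-68985068, plus strand) unwinds RNA in the nucleolus and was the 1 helicase with higher levels after PMA. It read 43.6 and 87.1 CPM in shNC, 39.4 and 88.0 in shUHRF1, 38.1 and 60.8 in shDNMT1 and 40.9 and 75.5 in shDNMT3B in DMSO. After PMA it read 119 and 149 CPM in shNC, 103 and 132 in shUHRF1, 105 and 140.3 in shDNMT1 and 73.3 and 103 in shDNMT3B, and in contrast with most of the 46 genes its replicate 2 libraries were the higher ones in all 8 groups. The log2 fold change was 1.31 ± 0.43 (SE, adjusted p = 0.0215) in shDNMT1, past the threshold, and 1.04 ± 0.43 (SE, adjusted p = 0.0556) in shNC, 0.89 ± 0.42 (SE, adjusted p = 0.0947) in shUHRF1 and 0.59 ± 0.42 (SE, adjusted p = 0.275) in shDNMT3B, which passed with the block alone (adjusted p = 1.4e-05, 6.3e-05 and 0.00374). DDX18, a helicase of pre-ribosome assembly, read 76.5 and 75.4 CPM in shNC, 83.7 and 95.5 in shUHRF1, 77.6 and 78.4 in shDNMT1 and 71.5 and 76.7 in shDNMT3B in DMSO. The PMA libraries read 66.1 and 65.2 CPM in shNC, 61.4 and 61.2 in shUHRF1, 55.8 and 59.3 in shDNMT1 and 57.0 and 56.9 in shDNMT3B. DDX18 fell in the 3 lines other than shNC, by 0.38 to 0.55 (log2), and its change in shNC was -0.21 ± 0.12 (SE, adjusted p = 0.162). DDX10, a helicase of small subunit assembly, fell in shUHRF1 (-0.63 ± 0.23 (SE, adjusted p = 0.0357)) and had a log2 fold change of -0.50 to -0.25 in the other lines, of which shDNMT1 passed with the block (adjusted p = 0.00501).

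**Figure D2:**
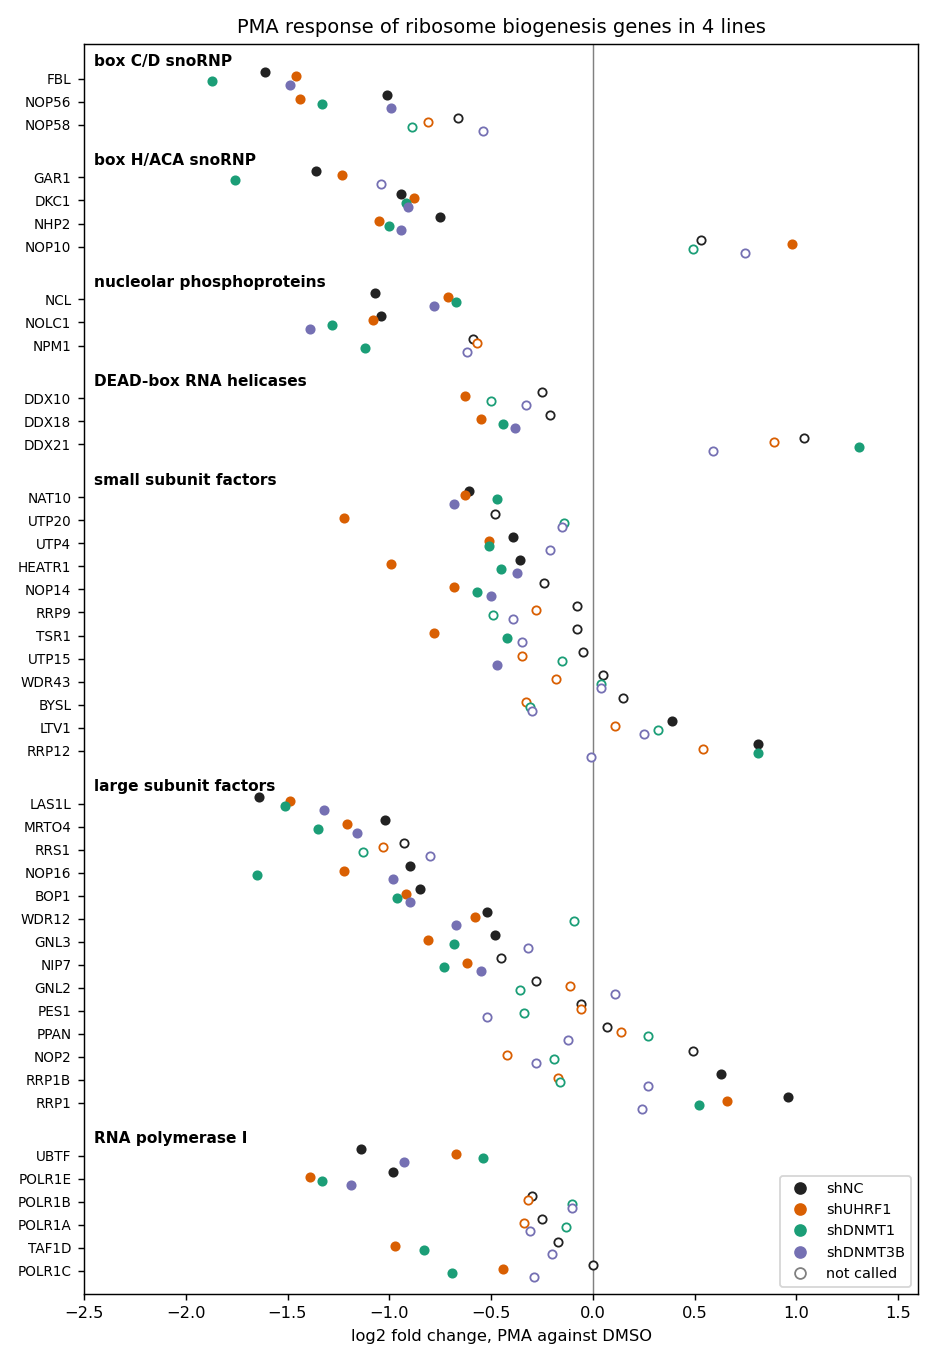
Log2 fold change between PMA and DMSO (x axis) for 45 of the 46 ribosome biogenesis genes (y axis, grouped by role and ordered by the change in shNC; PWP2 is left out) in the 4 lines (colours), with filled points for changes at an edgeR adjusted p under 0.05 without the block and open points for the others. Most points lie left of 0, FBL and LAS1L the farthest in shNC at -1.61 and -1.64, while RRP1, RRP12 and DDX21 lie on the right in shNC at 0.96, 0.81 and 1.04.

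The 13 small subunit factors had the smallest median change in shNC, -0.08, against -0.51 in shUHRF1, -0.32 in shDNMT1 and -0.30 in shDNMT3B. HEATR1, a large scaffold protein of the U3 complex, read 62.5 and 70.0 CPM in shNC, 90.8 and 87.5 in shUHRF1, 74.8 and 76.4 in shDNMT1 and 59.1 and 68.5 in shDNMT3B in DMSO. With PMA the values were 51.7 and 51.2 CPM in shNC, 43.9 and 45.8 in shUHRF1, 49.6 and 61.1 in shDNMT1 and 48.8 and 50.2 in shDNMT3B. It fell in all 4 lines, with a log2 fold change of -0.99 ± 0.14 in shUHRF1 and of -0.45 to -0.36 in the others, though HEATR1 overlaps LGALS8 on the other strand. NAT10, the enzyme that acetylates cytidines of the small subunit RNA, was the other one to fall in all 4 lines (log2 fold change -0.68 to -0.47). UTP4, a U3 complex protein, fell in the lines other than shDNMT3B (-0.51 to -0.39), and NOP14, a factor of the early small subunit particle, in the lines other than shNC (-0.68 to -0.50). TSR1, a late factor that resembles a GTPase, fell in shUHRF1 and shDNMT1 (-0.78 ± 0.14 and -0.42 ± 0.14), UTP20 in shUHRF1 alone (-1.22 ± 0.34 (SE, adjusted p = 0.00823)) and UTP15 in shDNMT3B (-0.47 ± 0.16 (SE, adjusted p = 0.0292)). With the block TSR1 fell in shDNMT3B too (adjusted p = 0.0141) and UTP15 in shUHRF1 too (0.0308). WDR43, RRP9 and BYSL passed the threshold in no line, with log2 fold changes between -0.49 and 0.15; with the block RRP9 and BYSL were lower in 2 lines each and WDR43 in none.

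2 small subunit factors rose. RRP12, an export factor of pre-ribosomal particles, read 49.9 and 40.4 CPM in shNC DMSO and 85.4 and 72.8 in shNC PMA. In the other lines RRP12 read 39.0 and 32.8 (shUHRF1), 50.2 and 38.4 (shDNMT1) and 70.4 and 44.9 CPM (shDNMT3B) in DMSO, against 50.8 and 53.4, 90.1 and 64.9, and 63.4 and 51.1 in PMA. It rose in shNC by 0.81 ± 0.24 (SE, adjusted p = 0.0121) and in shDNMT1 by 0.81 ± 0.24 (SE, adjusted p = 0.0128), and in shUHRF1 it passed with the block (adjusted p = 0.00109), while in shDNMT3B its libraries overlapped (-0.01 ± 0.24). LTV1, which is released before the small subunit matures, read 77.5 and 77.7 CPM in shNC, 114 and 100.1 in shUHRF1, 102 and 96.4 in shDNMT1 and 66.0 and 65.2 in shDNMT3B in DMSO. Under PMA it read 105 and 97.8 CPM in shNC, 131 and 98.7 in shUHRF1, 126 and 122 in shDNMT1 and 79.2 and 76.9 in shDNMT3B, and it rose in shNC (0.39 ± 0.15 (SE, adjusted p = 0.0422)) and, with the block, in shDNMT1 (adjusted p = 0.0197).

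Of the 14 large subunit factors, 4 fell in all 4 lines. LAS1L (ENSG00000001497, chrX:65438549-65534810, minus strand), the endonuclease that cuts the second internal spacer of the precursor, read 84.2 and 91.3 CPM in shNC, 69.4 and 74.7 in shUHRF1, 73.4 and 83.2 in shDNMT1 and 63.1 and 66.7 in shDNMT3B in DMSO. In PMA it read 27.5 and 28.7 CPM in shNC, 26.3 and 24.9 in shUHRF1, 29.4 and 25.5 in shDNMT1 and 25.5 and 26.4 in shDNMT3B, in a narrow band far below all DMSO libraries. The log2 fold change of LAS1L was -1.64 ± 0.14 (SE, adjusted p = 4.9e-07) in shNC, -1.49 ± 0.14 in shUHRF1, -1.51 ± 0.14 in shDNMT1 and -1.32 ± 0.14 in shDNMT3B. MRTO4, a placeholder for the ribosomal stalk protein, fell by 1.02 to 1.35 on the log2 scale, NOP16 by 0.90 to 1.65 and BOP1 by 0.85 to 0.96. BOP1 forms a complex with PES1 and WDR12 and read 170.1 and 137 CPM in shNC, 149 and 148 in shUHRF1, 162 and 135 in shDNMT1 and 194 and 142 in shDNMT3B in DMSO. After PMA it read 95.4 and 75.2 CPM in shNC, 79.7 and 77.3 in shUHRF1, 92.1 and 60.8 in shDNMT1 and 97.3 and 82.2 in shDNMT3B. Its partners differed from it: WDR12 fell in the lines other than shDNMT1 (-0.67 to -0.52, and -0.09 ± 0.12 in shDNMT1), and PES1 passed the threshold in none (with the block it was lower in shDNMT1 and shDNMT3B). PES1 read 155 and 124 CPM in shNC, 108 and 111 in shUHRF1, 136 and 129.8 in shDNMT1 and 174 and 127 in shDNMT3B in DMSO. The PMA libraries read 147 and 121 CPM in shNC, 108 and 102 in shUHRF1, 123 and 86.4 in shDNMT1 and 114 and 95.7 in shDNMT3B, and the log2 fold change of PES1 was -0.06 ± 0.21 (SE, adjusted p = 0.827) in shNC.

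GNL3, a nucleolar GTP-binding protein of proliferating cells, fell in shNC, shUHRF1 and shDNMT1 (-0.81 to -0.48), and NIP7 in the 3 lines other than shNC (-0.73 to -0.55). With the block GNL3 passed in shDNMT3B too (adjusted p = 0.0182) and NIP7 in shNC too (0.00212). RRS1, which brings the 5S particle to the large subunit, read 123 and 61.5 CPM in shNC, 106 and 59.1 in shUHRF1, 103 and 53.2 in shDNMT1 and 106 and 48.2 in shDNMT3B in DMSO. With PMA the values were 62.0 and 34.8 CPM in shNC, 54.3 and 26.4 in shUHRF1, 45.4 and 25.9 in shDNMT1 and 55.8 and 32.3 in shDNMT3B. Replicate 1 was the higher by 0.79 to 1.13 (log2) in every group, and the change in shNC of -0.93 ± 0.54 (SE, adjusted p = 0.16) passed the threshold with the block alone (3.5e-07), as in the other lines. GNL2, PPAN and NOP2 did not pass in any line without the block (log2 fold changes -0.42 to 0.49). With it GNL2 fell in shDNMT1 (adjusted p = 0.0179), and NOP2 rose in shNC and fell in shUHRF1. PPAN and NOP2 share reads with PPAN-P2RY11 and ENSG00000285238, which overlap them on the same strand.

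RRP1 and its paralog RRP1B, both nucleolar proteins of large subunit processing, were the large subunit factors that rose in shNC. RRP1 (ENSG00000160214, chr21:43789513-43805293, plus strand) read 32.3 and 34.2 CPM in shNC, 37.2 and 38.0 in shUHRF1, 38.9 and 38.0 in shDNMT1 and 34.5 and 32.8 in shDNMT3B in DMSO. Under PMA it read 67.6 and 61.8 CPM in shNC, 60.7 and 58.5 in shUHRF1, 62.9 and 47.0 in shDNMT1 and 41.8 and 37.7 in shDNMT3B, above all DMSO libraries except in shDNMT3B, where the replicate 2 library overlapped them. The log2 fold change of RRP1 was 0.96 ± 0.15 (SE, adjusted p = 1.5e-04) in shNC, 0.66 ± 0.15 (SE, adjusted p = 0.00224) in shUHRF1 and 0.52 ± 0.15 (SE, adjusted p = 0.0113) in shDNMT1, and it was not past the threshold in shDNMT3B (0.24 ± 0.15 (SE, adjusted p = 0.214)). RRP1B read 50.2 and 38.5 CPM in shNC, 50.5 and 52.2 in shUHRF1, 57.7 and 47.0 in shDNMT1 and 38.1 and 34.5 in shDNMT3B in DMSO. In PMA it read 72.0 and 65.4 CPM in shNC, 44.6 and 46.5 in shUHRF1, 47.9 and 45.98 in shDNMT1 and 45.9 and 41.9 in shDNMT3B, so that only the shNC libraries stood above all those in DMSO. It rose in shNC by 0.63 ± 0.16 (SE, adjusted p = 0.00446) and not in the other lines (-0.17 to 0.27). These rises depended on the scaling: with upper-quartile factors, which moved the median of all tested genes to between -0.31 and -0.22, RRP1 kept its call in shNC (0.68, adjusted p = 0.00193) and lost it in shUHRF1 (0.36, 0.0566) and shDNMT1 (0.25, 0.172). In shNC, RRP1B (0.35, 0.0752), RRP12 (0.53, 0.0808) and LTV1 (0.11, 0.574) lost theirs, as did RRP12 in shDNMT1 (0.54, 0.075) and NOP10 in shUHRF1 (0.66, 0.157). RRP1B was then called lower in shUHRF1 (-0.48) and shDNMT1 (-0.42). With those factors 24, 33, 34 and 27 of the 46 genes fell and 1, 0, 1 and 0 rose in shNC, shUHRF1, shDNMT1 and shDNMT3B. The shares of all tested genes were then 34%, 34.7%, 32.2% and 27.5% lower and 22.4%, 22.9%, 22.9% and 20% higher.

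**Figure D3:**
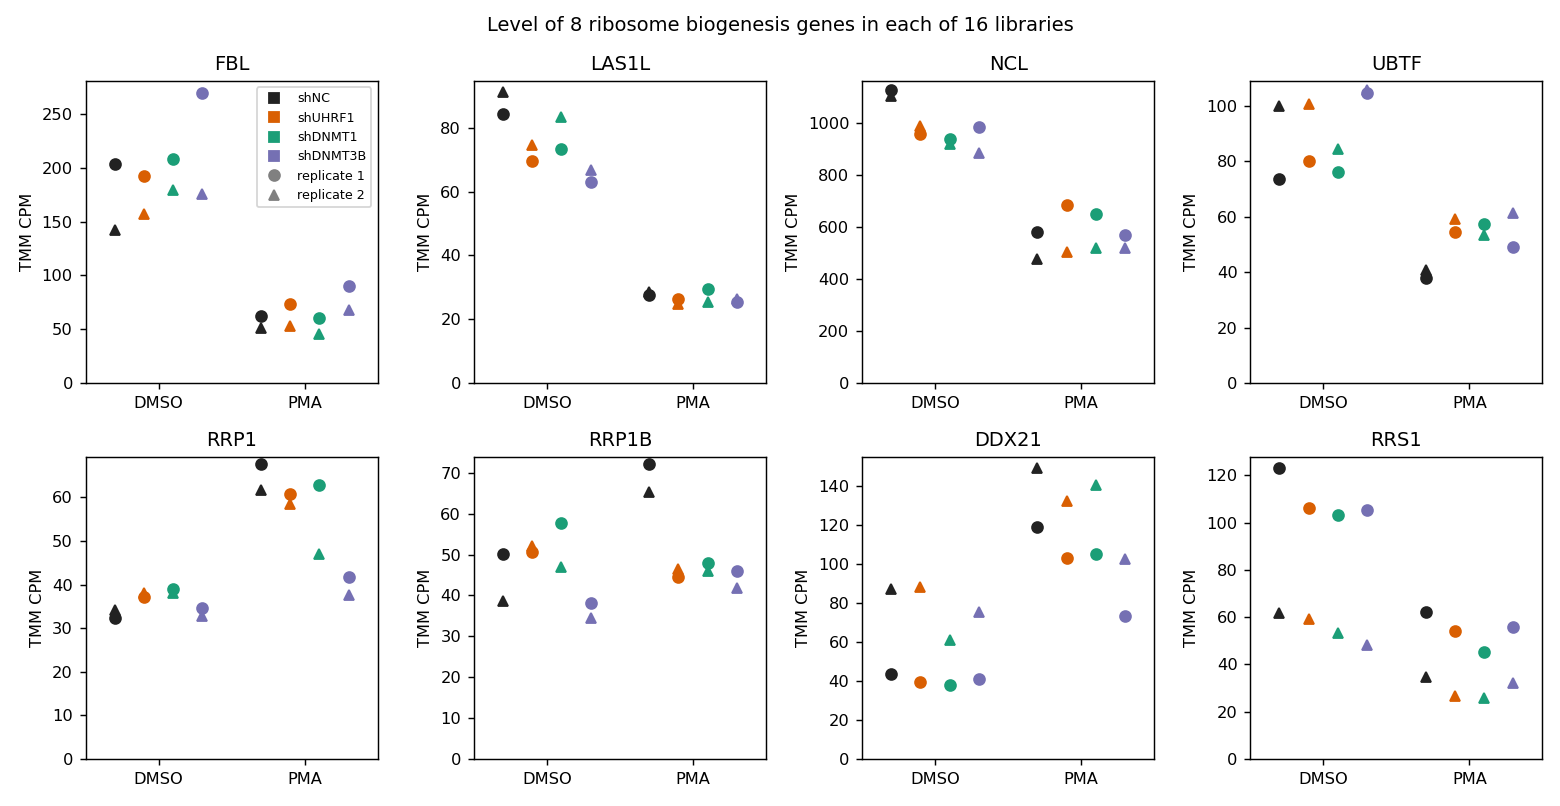
Level (y axis, TMM CPM from 0) of 8 ribosome biogenesis genes in each of the 16 libraries, by treatment (x axis), line (colours) and replicate number (circles for 1, triangles for 2). FBL, LAS1L, NCL and UBTF are lower in every PMA library than in every DMSO library, RRP1 is higher in 7 of 8 PMA libraries than in all DMSO libraries, RRP1B is above the DMSO libraries in shNC PMA alone, and DDX21 and RRS1 differ between replicates 1 and 2 in every group.

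RNA polymerase I was described by 4 subunits and 2 factors. UBTF, which bends and opens ribosomal DNA, read 73.8 and 99.98 CPM in shNC, 80.2 and 101 in shUHRF1, 76.3 and 84.4 in shDNMT1 and 105 and 106 in shDNMT3B in DMSO. After PMA it read 38.0 and 40.9 CPM in shNC, 54.7 and 59.1 in shUHRF1, 57.3 and 53.4 in shDNMT1 and 49.2 and 61.3 in shDNMT3B, below all DMSO libraries. The log2 fold change of UBTF was -1.14 ± 0.18 (SE, adjusted p = 1.5e-04) in shNC, -0.67 ± 0.18 in shUHRF1, -0.54 ± 0.18 in shDNMT1 and -0.93 ± 0.18 in shDNMT3B. POLR1E, a subunit involved in initiation, also fell in all 4 lines (log2 fold change -1.39 to -0.98). The largest subunits, POLR1A and POLR1B, were not past the threshold in any line without the block (-0.34 to -0.10). With it POLR1A was lower in shUHRF1 and shDNMT3B (adjusted p = 0.0117 and 0.029) and POLR1B in shNC and shUHRF1 (0.0322 and 0.0225). POLR1C, shared with RNA polymerase III, fell in shUHRF1 (-0.44 ± 0.16 (SE, adjusted p = 0.0313)) and shDNMT1 (-0.69 ± 0.16 (SE, adjusted p = 0.00301)) with no difference measured in shNC (0.00 ± 0.16). TAF1D, a component of the promoter selectivity factor SL1, read 61.3 and 59.5 CPM in shNC, 130 and 93.5 in shUHRF1, 85.2 and 91.5 in shDNMT1 and 83.1 and 93.2 in shDNMT3B in DMSO. The PMA libraries read 45.3 and 62.2 CPM in shNC, 56.2 and 57.7 in shUHRF1, 40.1 and 59.2 in shDNMT1 and 74.5 and 78.9 in shDNMT3B. It fell in shUHRF1 and shDNMT1 (-0.97 ± 0.21 (SE, adjusted p = 0.00183) and -0.83 ± 0.21 (SE, adjusted p = 0.00541)). In shNC it did not pass (-0.17 ± 0.21 (SE, adjusted p = 0.519)), and there the DMSO level was the lowest of the 4 lines.

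Across lines, 14 genes fell in 4 of 4: NOP56, FBL, DKC1, NHP2, NCL, NOLC1, HEATR1, NAT10, NOP16, BOP1, LAS1L, MRTO4, POLR1E and UBTF. That is 30.4% of the 46, beside 13.5% of all tested genes. Another 7 fell in 3 lines, 3 in 2 lines and 4 in 1 line (15.2%, 6.52% and 8.7%, beside 6.28%, 6.44% and 9.5% of all tested genes), and 12 were called in no line (26.1% beside 27.6%). With the block 20 fell in 4 of 4 (43.5% beside 19.2%), and NOP10 and DDX21 rose in 4 of 4 (4.35% beside 24.2%). No gene fell in 1 line and rose in another without the block, whereas with it NOP2 rose in shNC (adjusted p = 0.0128) and fell in shUHRF1 (0.0418), as PWP2 did on its few counts. By role, the number that fell in shNC, shUHRF1, shDNMT1 and shDNMT3B was 2, 2, 2 and 2 of the 3 box C/D proteins, 3, 3, 3 and 2 of the 4 box H/ACA proteins, and 2, 2, 3 and 2 of the 3 phosphoproteins. It was 0, 2, 1 and 1 of the 3 helicases, 3, 6, 5 and 4 of the 13 small subunit factors, 6, 7, 6 and 6 of the 14 large subunit factors, and 2, 4, 4 and 2 of the 6 RNA polymerase I genes. Of all tested genes, 26%, 25.5%, 24.1% and 19.7% fell in these lines. In shNC the helicases and the small subunit factors were below that share, and each role holds few genes.

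In shNC the medians of the other small subunit, large subunit and RNA polymerase I lists were closer to 0 than the -0.33 of the 46 genes. Those of the exosome list and the ribosomal proteins were farther from it. Beside the counts below, 26% of all tested genes fell and 28.4% rose in shNC (32.6% and 34.5% with the block). Of 38 other small subunit factors, 5 fell and 6 rose in shNC (median log2 fold change -0.03), among them WDR75 (-1.09 ± 0.19) and WDR3 (-0.74 ± 0.13), both U3 complex proteins, and KRR1 (1.89 ± 0.15) and RBM19 (1.11 ± 0.19). Of 44 other large subunit factors, 9 fell and 6 rose (median -0.20): NLE1 (-1.12 ± 0.19) and WDR18 (-1.44 ± 0.30) fell, and SBDS (1.31 ± 0.14), which helps to free the large subunit for translation, and RPF1 (0.62 ± 0.17) rose. Among 15 other RNA polymerase I subunits and factors 3 fell and 2 rose (median -0.06), with POLR1F (-0.94 ± 0.18) and TCOF1 (-0.57 ± 0.14) lower and TAF1A (1.13 ± 0.29) and the initiation factor RRN3 (0.44 ± 0.17) higher. The exosome list of 15 genes held subunits of the complex that trims ribosomal RNA precursors from the 3′ end. It also held MTREX, C1D, MPHOSPH6 and the exonuclease XRN2, which are not core subunits of that complex. Of the 15, 6 were lower and 0 higher (median -0.42), led by EXOSC8 (-2.04 ± 0.25) and EXOSC9 (-1.06 ± 0.24). With the block 10 were lower and 2 higher. Of 85 tested genes of cytosolic ribosomal proteins 42 fell and 0 rose in shNC (median -0.85), against 79 and 1 with the block. In shUHRF1, shDNMT1 and shDNMT3B their medians were -0.81, -1.26 and -0.61.

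**Figure D4:**
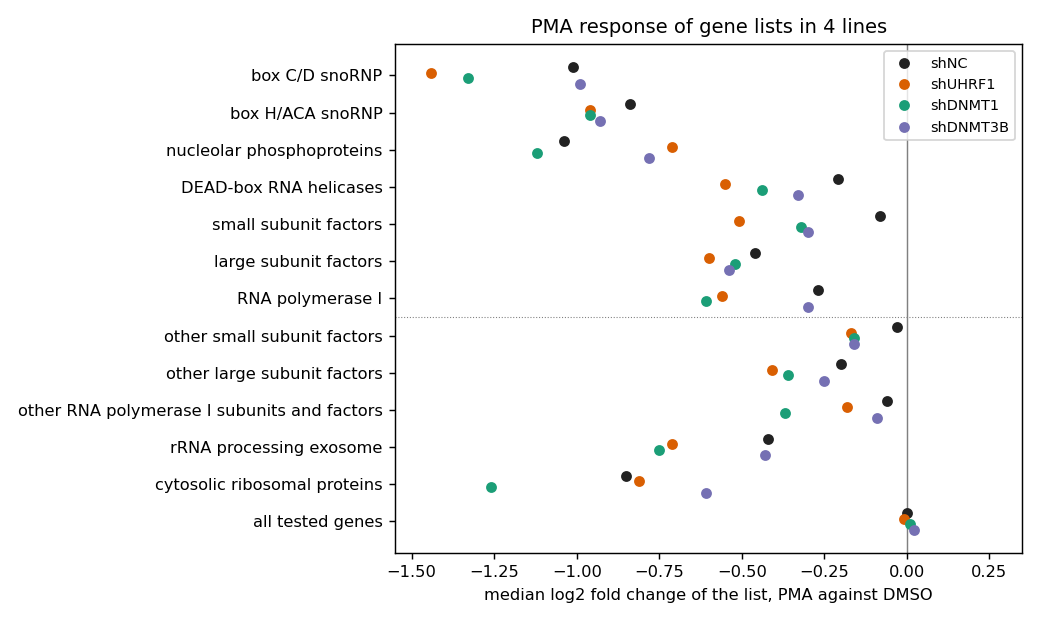
Median log2 fold change between PMA and DMSO (x axis) of the 7 role lists of the 46 genes (above the dotted line) and of other lists of the pathway and all tested genes (below it), for each of the 4 lines (colours). The medians of the box C/D proteins lie between -1.44 and -0.99, those of the other small subunit factors between -0.17 and -0.03, and those of all tested genes between -0.01 and 0.02.

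MYC and its partners moved as follows. MYC read 125 and 186 CPM in shNC, 101 and 123 in shUHRF1, 106 and 141 in shDNMT1 and 115 and 170.1 in shDNMT3B in DMSO. With PMA the values were 61.6 and 70.2 CPM in shNC, 52.9 and 47.8 in shUHRF1, 52.5 and 51.2 in shDNMT1 and 42.7 and 53.2 in shDNMT3B, without overlap, and its log2 fold change was -1.24 ± 0.24 (SE, adjusted p = 7.3e-04) in shNC and between -1.57 and -1.15 over the 4 lines. MXD1, which competes with MYC for MAX, read 4.45 to 6.27 CPM in the DMSO libraries and 25.7 to 59.3 CPM in the PMA libraries (3.16 ± 0.19 (SE, adjusted p = 2.7e-08) in shNC), and MAX rose in all 4 lines (0.52 to 0.79). MXD3, another partner of MAX, fell (-4.47 ± 0.26 (SE, adjusted p = 1.9e-08) in shNC), and MLX, a member of the related Mondo network, rose (1.18 ± 0.15 (SE, adjusted p = 3.2e-05)). In all, 2 of the 9 tested genes of the network fell and 5 rose in shNC. The 10 cell division genes all fell in shNC, with a median of -4.41 and CDC20 at -5.92 ± 0.20. Levels of CDC20 and MKI67 after PMA differed between the lines, as given above.

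In DMSO none of the 46 genes passed the edgeR test between a knockdown line and shNC without the block, for any of the 3 lines. All 3 comparisons use the same shNC libraries. The background was 1.31% of all tested genes for shUHRF1, 3.96% for shDNMT1 and 4.51% for shDNMT3B in either direction. At an unadjusted p under 0.05, 9, 4 and 3 of the 46 genes differed, beside 13.5%, 16.1% and 17.9% of all tested genes, and DESeq2 called 2 (HEATR1 and TAF1D, higher in shUHRF1), 0 and 1 (LAS1L, lower in shDNMT3B). With the block 5 were higher and 0 lower in shUHRF1 (background 4.59% and 6.87%), 4 higher and 1 lower in shDNMT1 (4.34% and 9.23%), and 2 higher and 1 lower in shDNMT3B (7.28% and 11.4%). TAF1D had log2 differences from shNC of 0.89 in shUHRF1, 0.55 in shDNMT1 and 0.54 in shDNMT3B (adjusted p with the block = 0.00210, 0.0393 and 0.0326), and its 2 shNC libraries (61.3 and 59.5 CPM) were below all 6 libraries of the other lines in DMSO. LTV1 was higher in shUHRF1 and shDNMT1 (0.46 and 0.35), NOP56, HEATR1 and PWP2 in shUHRF1, NOP16 and GNL2 in shDNMT1 and FBL in shDNMT3B. GAR1 was lower in shDNMT1 (-0.44) and LAS1L in shDNMT3B (-0.43). PWP2 had 0 and 3 counts in shNC, and its call was absent once its copy was added (adjusted p with the block = 0.657).

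After PMA, 4 differences from shNC passed without the block, all lower. In shDNMT1 these were NOP14, at -0.56 ± 0.16 (log2, SE, adjusted p = 0.0303), and RRP1B, at -0.55 ± 0.16 (log2, SE, adjusted p = 0.0347), 2 of 46 genes beside a background of 14.8% of all tested genes in either direction. In shDNMT3B they were RRP1, at -0.70 ± 0.15 (log2, SE, adjusted p = 0.00608), and RRP1B, at -0.65 ± 0.16 (log2, SE, adjusted p = 0.0128), beside a background of 20.3%. In shUHRF1 there was none (background 3.69%), with 8 genes at an unadjusted p under 0.05 (background 16.7%) and 2 called by DESeq2, NOP14 and RRP1B. NOP14 read 82.8 and 69.8 CPM in shNC, 67.0 and 70.9 in shUHRF1, 63.0 and 66.5 in shDNMT1 and 76.5 and 60.6 in shDNMT3B in DMSO. Under PMA it read 68.2 and 60.8 CPM in shNC, 40.8 and 45.2 in shUHRF1, 43.8 and 43.5 in shDNMT1 and 52.5 and 44.6 in shDNMT3B, and the 2 shNC libraries were above the 6 others. The same held for RRP1B in PMA, whose values are given above with the rises. NOP14 overlaps NOP14-AS1 on the other strand, so the reads of that pair may not be told apart. With the block 12 genes were lower and 1 higher in shUHRF1 (background 6.88% and 8.35%). There were 12 lower and 3 higher in shDNMT1 (15.1% and 16.3%), and 13 lower and 5 higher in shDNMT3B (19.5% and 20.5%). All 3 comparisons again share the shNC libraries. In the block fit the log2 differences of shUHRF1, shDNMT1 and shDNMT3B from shNC were -0.58, -0.56 and -0.41 for NOP14, -0.59, -0.55 and -0.65 for RRP1B, and -0.62, -0.43 and -0.56 for BYSL, a late small subunit factor. Those of UBTF were 0.53, 0.50 and 0.48. Each of these was past the threshold. The calls of shDNMT1 did not hold without any 1 of the 4 libraries compared, and those of shDNMT3B went to 0 without its PMA replicate 2 or the shNC PMA replicate 1 library and to 1 without its PMA replicate 1.

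The PMA response itself was tested against that of shNC, and none of the 46 genes passed without the block in shUHRF1 (background 0.848% in either direction), shDNMT1 (6.71%) or shDNMT3B (6.77%). At an unadjusted p under 0.05, 6, 6 and 2 genes differed, beside 11.9%, 19.4% and 19.7% of all tested genes, and DESeq2 called 3 (HEATR1, TSR1 and RRP1B), 1 (RRP1B) and 1 (RRP1). With the block 6 genes had a lower and 0 a higher response in shUHRF1 (background 2.47% and 6.02%), 3 a lower and 1 a higher response in shDNMT1 (5.81% and 12.8%), and 3 a lower and 0 a higher response in shDNMT3B (6.97% and 12.6%). The 3 comparisons share the response of shNC. RRP1B had the smallest adjusted p in both shUHRF1 and shDNMT1, with differences of -0.81 and -0.79 on the log2 scale (adjusted p with the block = 0.00481 and 0.00221), and RRP12 (-0.80, 0.00379) and RRP1 (-0.72, 0.00549) led in shDNMT3B.

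The 2 libraries of a group differed in the same direction for many of these genes. Replicate 1 was the higher in all 8 groups for 14 of the 46 genes (30.4%), beside 12.8% of all tested genes, and the lower in all 8 for 1 gene, DDX21 (2.17%), beside 12.2%. The median difference was largest for RRS1 (0.90 on the log2 scale), GAR1 (0.79), NPM1 (0.61), NOP58 (0.61) and NOP10 (0.60), and was -0.58 for DDX21. Each of these genes missed the threshold without the block in at least 1 line and passed it with the block in all 4. The mitochondrial share and the total count were also higher in replicate 1 of every group, and their part in these differences was not tested.

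**Figure D5:**
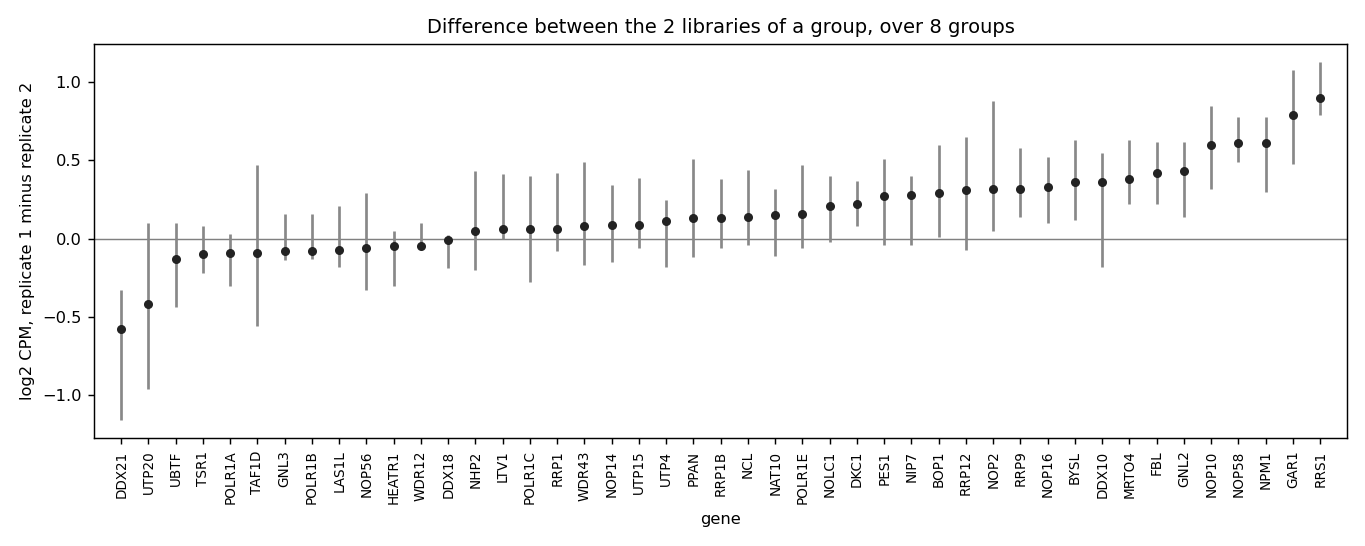
Difference in log2 CPM between replicate 1 and replicate 2 of the same group (y axis) for 45 of the 46 genes (x axis, ordered by the median; PWP2 is left out), with points for the median and lines for the range over the 8 groups. RRS1 and GAR1 are at the right with medians of 0.90 and 0.79, and DDX21 is at the left with a median of -0.58.

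Several of the 46 genes also carry snoRNA genes within their bounds, on the same strand. By GENCODE this was so for 10 of 46 (21.7%) against 277 of 16503 tested genes (1.68%). TAF1D holds 8 snoRNA genes, GNL3 holds 6, NOP56 holds 5 and NOP58 holds 4, and NCL, WDR43, DKC1, TSR1, PPAN and POLR1C hold between 1 and 3. After PMA in shNC, NOP56, DKC1, NCL and GNL3 of these hosts fell, while NOP58, TAF1D, WDR43, TSR1, PPAN and POLR1C were not past the threshold. The mature snoRNAs were not measured, since the libraries were made from polyadenylated RNA.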

How the data were processed

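Poly(A)-selected, strand-marking libraries of THP-1 cells were sequenced by the authors, who aligned the reads to hg38 and, per the submitters' processing notes, used STAR 2.4.0b, Cufflinks 2.1.1, HTSeq 0.6.1p1 and edgeR. The strand setting of the counting is not given in the sources used here. Besides NHP2 and HEATR1, others of the 46 genes, NOP14, TSR1, NIP7 and POLR1C among them, overlap genes on the other strand. Their reads may not be told apart either. The deposited table holds whole-number gene counts per library, not normalized (13883556 to 23151864 per library), and its columns were assigned to groups by the condition in their names, 12 of the 16 to a group only. The 46 genes, their role lists and the other gene lists were chosen with earlier results of these data known.

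The main test was edgeR's (version 4.0.16, under R 4.3.3). Low genes were removed by filterByExpr with a count of at least 10 and a total of at least 15, TMM gave the scaling, and 1 robust quasi-likelihood model over the 8 groups supplied 13 contrasts. Calls were made where p, adjusted by Benjamini and Hochberg over 16503 genes, was under 0.05, whatever the fold. Log2 CPM used a prior count of 2. The replicate numbers come from the column names of the count table. Deviations of same-numbered libraries from their group means correlated in 28 of 28 pairs of groups (0.22 to 0.508 over all tested genes, 0.319 to 0.905 over the 46 genes), so the number was taken to pair the libraries and was used as a block in a second fit, whose calls are given beside those without it. The alternatives were a DESeq2 1.42.0 fit, all genes kept whatever their counts, the compared groups alone, upper-quartile factors, no mitochondrially encoded genes, leaving out each library, and, added after seeing the data, summing PWP2 and its copy. The edgeR fit was tested on simulated counts.

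Per-library values were given, by a rule on role lists, for the 2 genes with the highest mean and the 1 with the largest change in shNC. They were also given for genes called between lines, for those that rose in shNC and for MYC. Of each other pathway list, up to 2 genes with the smallest adjusted p in each direction were named with their log2 fold changes. The other genes and libraries given in single values were chosen after their values were seen. Gene coordinates and overlaps are those of GENCODE release 44 (hg38). Protein sequences were not used here. One marker gene is not reported here.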

Additional observations from a re-analysis of the deposited data

Results flagged for a closer look

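With the replicate block, the response to PMA of 13 gene and line pairs differed from that of shNC by a test of the difference itself, and none of them without the block. In shUHRF1 the differences of the log2 fold changes were -0.88 for NOP2 (adjusted p = 0.0217), -0.63 for HEATR1 (0.0182), -0.81 for RRP1B (0.00481), -0.80 for TAF1D (0.0473) and -0.71 for TSR1 (0.0108), with adjusted p values of 0.407, 0.202, 0.142, 0.288 and 0.143 without the block. PWP2 in shUHRF1 had a fitted difference of -4.41 (0.0393), which rests on 0 and 3 counts in shNC DMSO and is no bound, and with its near-identical copy added the difference was 0.08 (adjusted p with the block = 0.904).

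In shDNMT1 the differences were -0.77 for NOP16 (0.00250), -0.79 for RRP1B (0.00221), -0.69 for POLR1C (0.0137) and 0.60 for UBTF (0.0214), against 0.215, 0.0542, 0.0991 and 0.199 without the block. In shDNMT3B they were -0.80 for RRP12 (0.00379), -0.79 for NOP2 (0.0209) and -0.72 for RRP1 (0.00549), against 0.193, 0.338 and 0.0629. All 13 share the 4 shNC libraries. All p values here are edgeR's, adjusted over all tested genes.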

How the results depend on the processing

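The replicate block, whose numbers were taken to pair the libraries, gave 30 for the PMA response of shDNMT3B in place of 19, 5, 5 and 3 for shUHRF1, shDNMT1 and shDNMT3B against shNC in DMSO in place of 0, 13, 15 and 18 after PMA in place of 0, 2 and 2, and 6, 4 and 3 for the differences of the PMA response in place of 0. The block changed 108 of 598 single calls, all towards the threshold. DESeq2 gave 2 and 1 for shUHRF1 and shDNMT3B against shNC in DMSO, 2 and 4 for shUHRF1 and shDNMT1 after PMA, and 3, 1 and 1 for the differences of the response. Without the filter on low counts there were 1 for shUHRF1 in DMSO and 1 and 4 for shDNMT1 and shDNMT3B after PMA, and with only the groups compared 0 and 4 for the last 2. Leaving out 1 library at a time gave 15 to 18, 23 to 27, 17 to 23 and 12 to 17 for the PMA response of shNC, shUHRF1, shDNMT1 and shDNMT3B, 0 to 1 for shUHRF1 against shNC in DMSO, 0 in every case for shDNMT1 and 0 to 2 for shDNMT3B after PMA, and 0 to 1 for the difference of the response of shDNMT1. The causes were not tested. Upper-quartile factors and leaving out the mitochondrially encoded genes kept every total of called genes within 1.5 times. The split moved: upper-quartile factors gave 1, 0 and 1 rises after PMA in shNC, shUHRF1 and shDNMT1 in place of 4, 2 and 3, and 1 fall in place of 2 for shDNMT1 against shNC after PMA, and without mitochondrially encoded genes shUHRF1 had 1 rise in place of 2. Those factors also gave 1 gene higher in place of 0 for shDNMT1 and for shDNMT3B against shNC after PMA. For shDNMT1 the same count of 1 came without mitochondrially encoded genes and in DESeq2. With upper-quartile factors the median of all tested genes moved to -0.29, -0.31, -0.25 and -0.22 and that of the 46 genes to -0.61, -0.93, -0.76 and -0.63 (shNC, shUHRF1, shDNMT1 and shDNMT3B), a difference of -0.33, -0.62, -0.51 and -0.41, close to that with TMM. Adding the copy to PWP2 changed no call in the fit without the block. With 2 libraries per group, small differences between lines may be past the reach of the test.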

Other observations

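Genes of cytosolic ribosomal proteins, the products that the 46 genes help to assemble, had medians after PMA that varied between lines. In shDNMT3B their median log2 difference from shNC was 0.47, against -0.11 for the 46 genes. By edgeR 2 of 85 were higher and 0 lower, beside 20.3% of all tested genes in either direction. With the replicate block 51 were higher and 2 lower (background 20.5% and 19.5%). In shUHRF1 and shDNMT1 the medians were -0.07 and -0.12, with 0 of 85 called in either (background 3.69% and 14.8%). With the block 0 and 0 were higher (background 8.35% and 16.3%) and 1 and 7 lower (6.88% and 15.1%). These comparisons share the shNC libraries.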
